A study of Mus musculus with 6 samples.

Results

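The core circadian clock loop was examined as 10 genes, Arntl, Clock, Npas2, Per1, Per2, Per3, Cry1, Cry2, Nr1d1 and Nr1d2, of 18193 genes that the array annotation names by a single symbol. They were found by those symbols, and every one of their 23 probe sets was read. The arrays held RNA of mouse inguinal fat cells differentiated in culture: 3 from cells kept with rosiglitazone at 1 uM over 4 days and 3 from control cells without the drug. Rosiglitazone activates PPARγ, the nuclear receptor that drives fat cell formation, and the labels call the treated cells beiging and the controls non-activated. The labels give no strain, sex or age of the mice, and they do not say whether replicates were grown in different dishes, so each p-value covers only the variation among these 6 arrays.

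In the clock loop, the protein BMAL1, made from Arntl, pairs with CLOCK or with its relative NPAS2 and switches on genes that carry E-box sequences. Among these are the Per and Cry genes, whose proteins return to block the pair, and the Rev-erb genes Nr1d1 and Nr1d2. Rev-erb proteins repress Arntl through ROR elements, sites where the ROR receptors instead activate, and the bZIP factors DBP, TEF, HLF and NFIL3 act on D-box sequences in other clock genes. Fat cells hold such a clock, and Nr1d1 has been described as a PPARγ target in them. Transcripts of the loop rise and fall over the day. All 6 samples were taken at 1 duration of treatment, and the labels state neither the hour of harvest nor whether the cells were synchronised, so a shift in time, a change in amplitude and a change in mean level cannot be told apart.

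On the deposited scale most of the loop was lower with rosiglitazone. By the brightest probe set of each gene, 7 of the 10 members fell, 2 rose and 1 was not called, where called means a limma adjusted p under 0.05. The largest falls were in Per3, which encodes a period protein, and the Rev-erb gene Nr1d1, at 0.575 and 0.577 times the control level, followed by the cryptochrome gene Cry2 at 0.652 times and Arntl at 0.697 times. Clock rose to 1.23 times and Nr1d2 to 1.08 times the control level. Much of the array differed between the groups: of 12947 genes tested, 59.2% were called, 35.7% as lower and 23.5% as higher. This balance depends on the scaling: 4622 genes fell and 3047 rose as reported, 3769 fell and 3937 rose after quantile normalization, and 3273 fell and 4550 rose after median centring. Of the 10 members, 5 were called as lower and 2 as higher after either of these rescalings. The median log2 change of the 10 members was −0.30, beside −0.051 for all genes tested. Their median absolute log2 change was 0.36, beside 0.24 for all genes. Of the members 4 of 10 were called with a log2 change beyond 0.5 in either direction, beside 21.7% of all genes. The 3 arrays of one group lay wholly to one side of the other for 9 of 10 members, and for 63.9% of all genes tested. The falls of Per2 and Cry1 and the rise of Nr1d2 were small and depended on the processing: without rosiglitazone array 2, for example, these 3 were not called and 6 of 10 members were.

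**Figure D1:**
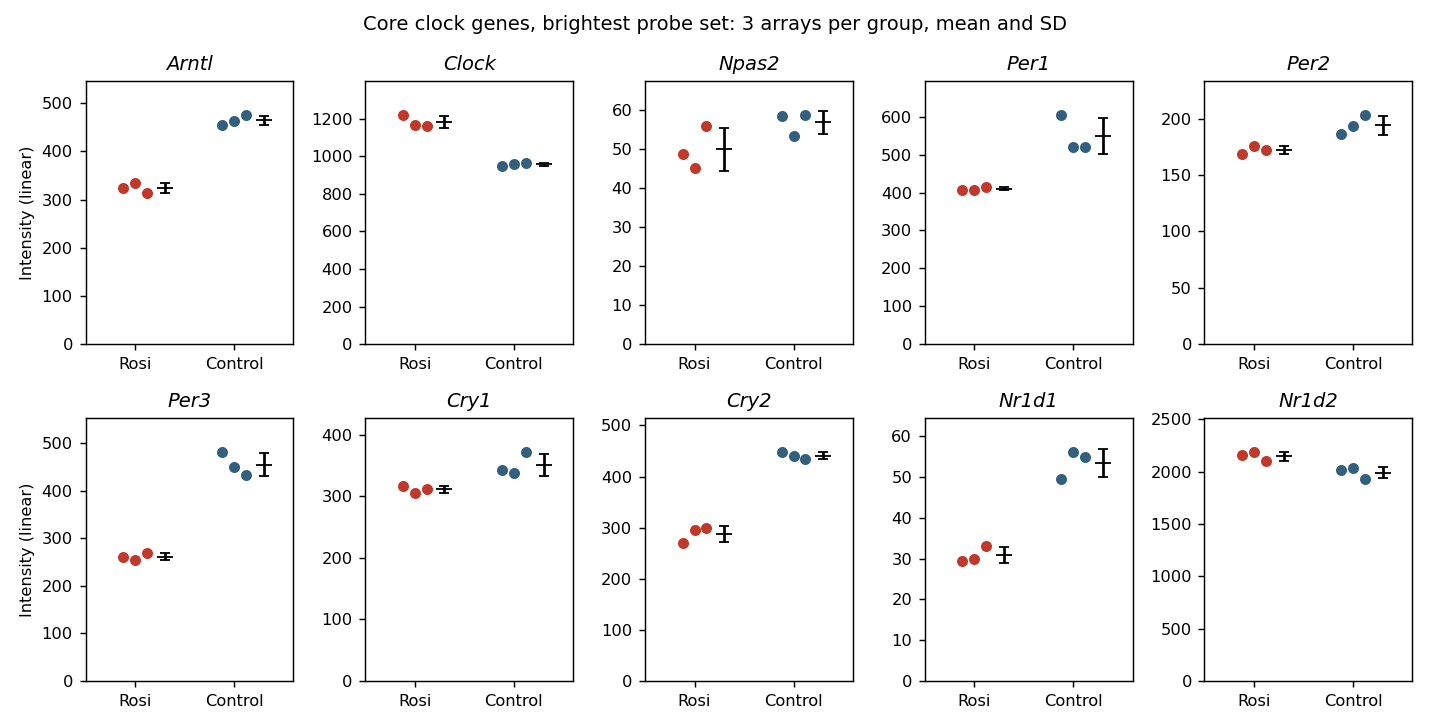
Intensity on a linear scale (y axis, from 0) of the brightest probe set of each core clock gene, with 3 rosiglitazone arrays on the left and 3 control arrays on the right of each panel; bars give the mean and SD. The groups do not overlap for any gene but Npas2, and the rosiglitazone arrays are the higher ones for Clock and Nr1d2.

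The arrays were alike in overall level, with medians of 44.46 to 46.66, and log2 intensities correlated at 0.994 to 0.996 within a group and 0.984 to 0.985 between groups. Fat cell markers other than Lep were bright in both groups: Adipoq averaged 13158 ± 238 with rosiglitazone and 12828.5 ± 147 in control cells (SD, n = 3 each). Lep read 10.8, 21.3 and 25.3 with rosiglitazone, against 644.1, 637.5 and 712.2 in control cells, a log2 change of −5.02. Of 8 fat cell markers tested, 1 rose and 5 fell. Over all genes tested 23.5% rose and 35.7% fell, the shares to set beside each marker count here. The fat cell markers had summed intensities of 56715 to 57714 with rosiglitazone, against 58614 to 59555 in control cells. Among the fat cell markers that fell, Pparg was at −0.36, Slc2a4 at −0.26 and Cebpa at −0.25 on the log2 scale. After median centring Adipoq and Fabp4 were called as higher, at 0.16 and 0.081. The bright markers make up nearly all of these sums, so they do not show the fall of Lep. Macrophage markers were present and fell in 11 of 12 tested cases, with summed intensities of 4280 to 4663 with rosiglitazone, against 12555 to 13689 in control cells. Another listed macrophage marker, Itgam, was too dim to test, between 17.11 and 33.07. Of 5 smooth muscle markers 4 fell, led by Myh11 at 0.257 times control, and 1, Des, rose, with sums of 4585 to 4697 with rosiglitazone, against 7946 to 8381 in control cells. The call of Des was lost under 8 alternatives, among them without control array 1 (0.15) or 2 (0.21) and without rosiglitazone array 1 (0.20) or 2 (0.18). The endothelial markers Pecam1, Cdh5, Kdr, Emcn and Tie1 stayed at or under 27.85 on every array. Of the 3 other endothelial markers Flt1 and Tek fell and Sox18 rose, and their sums were 170.6 to 190.7 with rosiglitazone, against 380.4 to 395.6 in control cells. Leaving out control array 2 (0.32), rosiglitazone array 2 (0.42) or 3 (0.45) ended the call of Sox18, as did no filter and a floor of 64, which all its values lie under. The share of the clock values that comes from cells other than fat cells was not tested, and in such mixed RNA fewer cells of a type and less RNA per cell cannot be told apart.

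Promoter windows from RefSeq (build GRCm38.p6, 250 bases before to 50 after a start site) were held for 9 members, in 13 windows; Per2 had none. They were searched on both strands for 4 motifs, and no match overlapped another in the windows shown. The E-box, CACGTG, is bound by the BMAL1 pair and stood in 7.15% of all 32851 promoter windows. A weaker E-box-like form was searched as CACGTT, and 4.68% of the windows held it. Written from the opposite strand that form reads AACGTG. The D-box was searched as TTATGTAA and was present in 0.938% of the windows. The core of the ROR element, TAGGTCA, was present in 2.61%. The windows of Arntl, Per1, Per3, Cry1, Cry2 and Nr1d1 that held a match are printed with their genes, because these 6 genes fell and show the letters through which the loop is known to act. A match describes the letters and shows no binding. The windows of Clock, Npas2 and Nr1d2 and the second window of Per1 and the first of Arntl held none of the 4 motifs.

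The activator arm split. Arntl, whose product BMAL1 is the obligate partner in the activating pair, had intensities of 323.3, 335.4 and 313.1 with rosiglitazone, against 455.3, 463.1 and 474.8 in control cells. All 3 rosiglitazone arrays lay below all 3 control arrays. The log2 change was −0.52 (SE 0.05, limma adjusted p = 3.0e-07). A second, dimmer probe set of Arntl did not show it, at 53.8 ± 5.8 with rosiglitazone and 48.9 ± 4.4 in control cells (SD, n = 3 each), a log2 change of 0.14 with limma adjusted p = 0.484. With the mean of both probe sets the fall of Arntl was −0.19 (limma adjusted p = 0.0493). The Arntl window with a ROR element core, at chr7:113207261-113207560 on the plus strand, is printed 5′ to 3′ with that core in capitals, 30 bases after the start site:
Arntl: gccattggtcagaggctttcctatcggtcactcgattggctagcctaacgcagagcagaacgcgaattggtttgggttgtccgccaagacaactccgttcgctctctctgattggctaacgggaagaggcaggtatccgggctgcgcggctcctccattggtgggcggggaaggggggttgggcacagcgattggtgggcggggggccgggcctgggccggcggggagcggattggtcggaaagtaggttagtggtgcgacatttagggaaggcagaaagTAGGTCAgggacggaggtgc

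Clock encodes the DNA-binding partner of BMAL1 that also acetylates histones. Its brightest probe set read 1217.4, 1164.6 and 1159.0 with rosiglitazone, against 945.8, 958.0 and 964.3 in control cells. Every rosiglitazone array was above every control array, with a log2 change of 0.30 (SE 0.04, limma adjusted p = 3.7e-06). Of the 3 other Clock probe sets, 1 rose by 0.30 on the log2 scale (limma adjusted p = 0.00117). The next brightest had a log2 change of 0.094 (limma adjusted p = 0.195) and the dimmest one of −0.26 (limma adjusted p = 0.206), although neither overlapped between groups. The mean of the 4 probe sets gave 0.11 and was not called (limma adjusted p = 0.0965).

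Npas2, which can stand in for CLOCK, was dim. Its brighter probe set read 48.6, 45.2 and 55.9 with rosiglitazone, against 58.5, 53.4 and 58.6 in control cells, and the groups overlapped. The log2 change was −0.19 (95% CI −0.51 to 0.12, limma adjusted p = 0.288), an interval that holds both a clear fall and a small rise. The other probe set, between 10.47 and 22.07 on the 6 arrays, was under the filter on low values and was not tested.

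The period genes encode the repressors that set the pace of the loop. Per3 changed most. Its brightest probe set read 259.5, 255.1 and 268.9 with rosiglitazone, against 480.9, 448.9 and 433.1 in control cells, with a wide gap between the groups. The log2 change was −0.80 (SE 0.06, limma adjusted p = 4.9e-09). Per3 had 6 probe sets, more than any other member. Of these, 3 fell, with log2 changes of −0.82 to −0.76. Apart from the brightest, those that fell were the dimmest of the 6, averaging 48.0 and 46.3 over all arrays. The other 3 had log2 changes of −0.27 to −0.094 and were not called (limma adjusted p = 0.106 to 0.506). Brighter ones among these 3, averaging 122.1 and 86.9, had log2 changes of −0.11 and −0.094 and overlapped between groups. The mean of all 6 gave −0.48 and was called.

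Per1 is a period gene that hormones and early-response signals are known to induce directly. It read 407.2, 407.9 and 415.2 with rosiglitazone, against 603.5, 521.1 and 520.3 in control cells. The rosiglitazone arrays were close together and the first control array stood above the other two. The log2 change was −0.42 (SE 0.06, limma adjusted p = 1.4e-05), and without that control array it was −0.34 and still called. Other transcripts that respond to the same kinds of signal were lower on these arrays as well. All 7 tested early-response genes fell, among them Egr1 at 0.276 and Fos at 0.344 times the control level, with sums of 3474 to 3518 with rosiglitazone, against 6505 to 6855 in control cells. All 7 other tested glucocorticoid-responsive genes fell, among them Sgk1 at 0.479, Tsc22d3 at 0.576 and Fkbp5 at 0.586 times control. With Per1 their sums were 30290.0 to 31725 with rosiglitazone, against 43484 to 43832 in control cells. Dusp1 stands in both of these lists. Of all 12947 genes tested 35.7% were called as lower, and both lists were chosen with earlier results of these data known. Whether these signals bear on the level of Per1 was not tested.

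Per2 read 168.9, 176.2 and 172.1 with rosiglitazone, against 186.4, 193.4 and 202.9 in control cells, so that the groups did not overlap but lay close. The log2 change was −0.17 (SE 0.07, limma adjusted p = 0.0493), the weakest call among the members. It was lost under 11 of 16 alternatives. Without control array 2 or 3 the change was −0.17 or −0.14, and without rosiglitazone array 1, 2 or 3 it was −0.16, −0.19 or −0.17, in each case not called. When all probe sets were tested singly, none of its 3 was called, with log2 changes of −0.17 to −0.15 (limma adjusted p = 0.0607 to 0.618).

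The windows of Per3 (chr4:151044616-151044915, minus strand) and Per1 (chr11:69098699-69098998, plus strand) are shown 5′ to 3′ with the matched motifs in capitals. Per3 holds the D-box letters at 2 places, 205 and 158 bases before the start site, and no E-box. Per1 holds an E-box 166 bases before the start site of its upstream promoter:
Per3: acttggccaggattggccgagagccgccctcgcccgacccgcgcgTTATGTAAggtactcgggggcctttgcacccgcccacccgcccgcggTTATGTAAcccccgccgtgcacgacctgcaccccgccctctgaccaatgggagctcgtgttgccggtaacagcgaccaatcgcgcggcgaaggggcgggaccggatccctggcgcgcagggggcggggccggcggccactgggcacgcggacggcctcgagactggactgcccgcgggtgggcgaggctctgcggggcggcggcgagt
Per1: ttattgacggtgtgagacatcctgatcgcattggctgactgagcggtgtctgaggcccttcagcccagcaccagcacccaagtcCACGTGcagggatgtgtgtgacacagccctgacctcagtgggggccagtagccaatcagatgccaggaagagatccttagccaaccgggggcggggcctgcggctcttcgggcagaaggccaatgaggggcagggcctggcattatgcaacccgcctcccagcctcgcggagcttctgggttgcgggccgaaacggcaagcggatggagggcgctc

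Cryptochromes are the partners with which the period proteins block the activating pair. Cry2 read 269.4, 295.9 and 298.6 with rosiglitazone, against 448.0, 440.9 and 434.6 in control cells. The groups were far apart, with a log2 change of −0.62 (SE 0.06, limma adjusted p = 1.0e-07). Cry1, the stronger repressor of the pair in mice, read 316.5, 305.2 and 312.5 with rosiglitazone, against 342.8, 338.4 and 372.2 in control cells. Its groups did not overlap, but its log2 change was −0.17 (SE 0.06, limma adjusted p = 0.0179). The call of Cry1 was lost without control array 3, at −0.13, and without rosiglitazone array 2, at −0.16. It was also lost after quantile normalization, at −0.067, and after median centring, at −0.050. Each cryptochrome gene had 1 probe set.

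In the window of Cry2 (chr2:92434020-92434319, minus strand) the E-box-like letters stand 166 bases before the start site. The window of Cry1 (chr10:85185005-85185304, minus strand) holds the E-box-like letters 79 bases and an E-box 60 bases before it, again in capitals and 5′ to 3′:
Cry2: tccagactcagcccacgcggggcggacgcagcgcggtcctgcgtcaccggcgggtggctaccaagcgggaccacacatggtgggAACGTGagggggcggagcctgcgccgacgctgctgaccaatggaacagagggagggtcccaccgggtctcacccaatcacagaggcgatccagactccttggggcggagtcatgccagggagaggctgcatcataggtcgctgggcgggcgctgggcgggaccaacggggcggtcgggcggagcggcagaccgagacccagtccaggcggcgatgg
Cry1: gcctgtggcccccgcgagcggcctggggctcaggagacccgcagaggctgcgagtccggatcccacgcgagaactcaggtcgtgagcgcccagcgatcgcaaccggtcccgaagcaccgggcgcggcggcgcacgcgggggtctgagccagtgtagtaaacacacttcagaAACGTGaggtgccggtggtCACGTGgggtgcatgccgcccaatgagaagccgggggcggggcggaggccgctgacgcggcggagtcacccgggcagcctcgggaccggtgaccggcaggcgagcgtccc

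The Rev-erb genes moved apart. Nr1d1, which encodes Rev-erbα, a repressor of Arntl, read 29.5, 29.9 and 33.2 with rosiglitazone, against 49.6, 56.1 and 54.8 in control cells. All rosiglitazone arrays lay below all control arrays, with a log2 change of −0.79 (SE 0.17, limma adjusted p = 0.000823). These intensities are near the dim end of what was tested, since the filter removed probe sets under 26.7, and the 1 probe set of Nr1d1 has no second reading. With a floor of 64 all 6 of its values lie under the floor and no change can be measured. Nr1d2, which encodes the related repressor Rev-erbβ, read 2153.9, 2186.2 and 2097.3 with rosiglitazone, against 2013.4, 2030.9 and 1926.6 in control cells. The groups did not overlap, though the log2 change was small at 0.11 (SE 0.03, limma adjusted p = 0.0111). Without rosiglitazone array 2 it was 0.095 and not called, without a variance trend it was not called either (limma adjusted p = 0.0592), and after median centring it was 0.23 and called. A second Nr1d2 probe set, between 17.03 and 36.15, was too dim to test.

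The window of Nr1d1 at chr11:98775328-98775627 on the minus strand, 5′ to 3′, holds the E-box-like letters, in capitals, 28 bases before the start site:
Nr1d1: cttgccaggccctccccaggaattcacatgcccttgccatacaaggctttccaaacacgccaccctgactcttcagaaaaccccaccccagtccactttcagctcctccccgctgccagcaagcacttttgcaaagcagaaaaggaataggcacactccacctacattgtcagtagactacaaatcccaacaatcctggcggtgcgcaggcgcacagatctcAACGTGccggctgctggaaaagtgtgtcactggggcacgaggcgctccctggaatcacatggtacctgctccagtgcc

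Differences between related members were also taken within each array, from the brightest probe set of each gene. There a single scale factor for a whole array cancels except for values at the floor. Scaling or background that depends on intensity does not cancel, and how the deposited values were scaled is not given. The level of a single ratio has no meaning across probe sets, but its shift between groups does. The log2 ratio of Clock to Arntl was higher with rosiglitazone by 0.82, that of Nr1d2 to Nr1d1 by 0.90, that of Cry1 to Cry2 by 0.44 and that of Clock to Npas2 by 0.50. Among the period genes, Per2 over Per3 shifted by 0.63, Per1 over Per3 by 0.38 and Per2 over Per1 by 0.24. In each of these 7 pairs the 3 rosiglitazone arrays lay on one side of the 3 control arrays. How often other gene pairs of the array do so was not computed. Taken singly, 63.9% of all genes tested and 9 of the 10 members did not overlap, so the separation of the pairs is no separate result. The exact permutation test gave p = 0.1 two-sided (adjusted p = 0.1 over the 7 pairs), the smallest value that 3 arrays against 3 allow. No pair can pass 0.05 in this design. With the mean of probe sets the log2 changes of Clock, Arntl and Per3 were nearer to no change, at 0.11, −0.19 and −0.48. The shifts of pairs that hold these genes therefore depend on the probe set. Nr1d1 and Npas2 were read little above the filter, which limits their pairs. The SD of the log2 ratio was 0.062 with rosiglitazone and 0.017 in control cells for Clock over Arntl, and 0.12 with rosiglitazone and 0.11 in control cells for Nr1d2 over Nr1d1. For Per2 over Per1 it was 0.034 with rosiglitazone and 0.18 in control cells, so that this shift of 0.24 was close to the spread between control arrays.

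Tested probe set by probe set, 21 of the 23 passed the filter, and 11 of those were called, 8 lower and 3 higher. Of all 27022 probe sets tested 51.8% were called, 30.6% as lower and 21.1% as higher, so the share of called probe sets among the members was near that of the array. The groups did not overlap for 15 of the 21, beside 58.2% of all probe sets. Among the 11 tested probe sets that were not the brightest of their gene, 3 were called: 1 of Clock and 2 of Per3, each in the direction of the brightest. The 4 genes with a single probe set, Per1, Cry1, Cry2 and Nr1d1, have no such second reading.

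**Figure D2:**
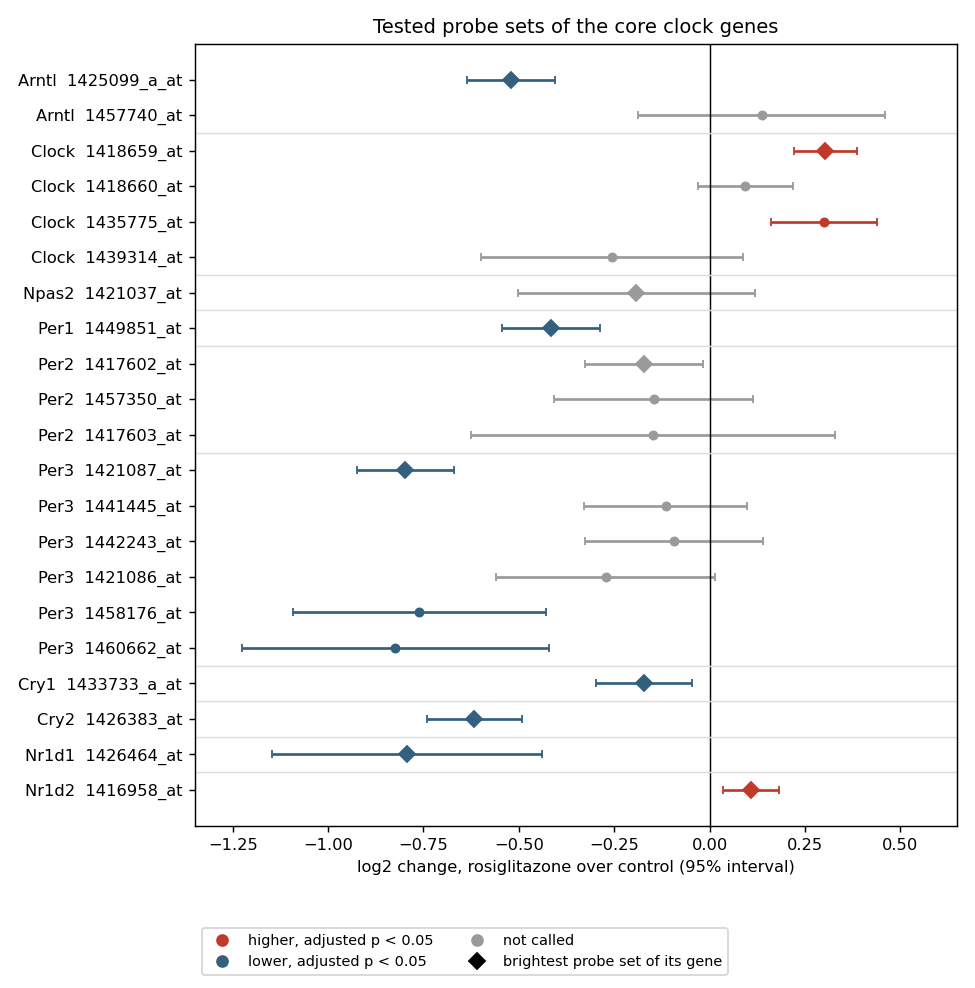
Log2 change, rosiglitazone over control, with its 95% interval (x axis) for each of the 21 tested probe sets of the core clock genes (y axis); diamonds mark the brightest probe set of a gene, and colour gives the call over all probe sets. The 3 called Per3 probe sets lie between −0.82 and −0.76 while its other 3 lie between −0.27 and −0.094, and the second Arntl probe set lies at 0.14.

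Genes around the loop were read from lists of its other feedback factors, output factors, kinases, cofactors and targets. Of 51 listed genes 43 were tested, of which 23 fell, 6 rose and 14 were not called, with a median log2 change of −0.18. Over all genes tested 59.2% were called and the median was −0.051. The 6 of 10 turnover factors and 6 of 12 cofactors called, given below, lie near or under that share. After median centring 18 fell and 12 rose. Among the ROR receptors, which activate Arntl, Rora read 1020.9, 1033.2 and 1083.4 with rosiglitazone, against 1865.1, 1910.7 and 1834.7 in control cells, 0.559 times the control level (log2 change −0.84, limma adjusted p = 1.0e-11). Of its 9 probe sets 7 fell, 1 rose by 0.36 and 1 was not called. Rorb had a log2 change of 0.34 (limma adjusted p = 0.0691), which was 0.43 and called without rosiglitazone array 1 and 0.46 and called after median centring.

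Of 5 genes tested from the list of other feedback factors 4 fell, beside 35.7% of all genes tested. A feedback role of the listed genes, among them Timeless, Tipin and Arntl2, was not tested. Bhlhe40, which encodes the E-box repressor DEC1, fell to 331.3 ± 10.6 with rosiglitazone, against 765.2 ± 39.5 in control cells (SD, n = 3 each), a log2 change of −1.21. Its relative Bhlhe41 was under the filter, between 4.06 and 23.31. Ciart, which encodes the repressor CHRONO, fell by 0.34 on the log2 scale, and this call was lost without control array 2 (−0.28) or rosiglitazone array 1 (−0.25), after quantile normalization (−0.26), after median centring (−0.21) and without a filter. Timeless fell by 0.59, and the BMAL1 paralogue gene Arntl2 fell by 0.56, both from dim probe sets. The call of Timeless was lost with a floor of 64 (−0.045) and without a filter (limma adjusted p = 0.0502). That of Arntl2 was lost with a floor of 64, under which all its values lie, and without control array 2 (−0.51), and its change was 0.077 with the mean of its probe sets. Tipin had a log2 change of −0.12 (limma adjusted p = 0.0634).

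All 4 output bZIP genes fell, beside 35.7% of all genes tested. Nfil3, whose product represses through D-boxes, read 509.5, 524.9 and 546.8 with rosiglitazone, against 969.4, 985.6 and 875.4 in control cells (log2 change −0.84, limma adjusted p = 5.7e-10). Of the D-box activators, Hlf fell by 0.65, Tef fell by 0.42 and Dbp fell by 0.21. The smallest of these, Dbp, read 1586.7, 1564.3 and 1510.2 with rosiglitazone, against 1838.5, 1863.2 and 1704.2 in control cells. After median centring its change was −0.091 and not called (limma adjusted p = 0.0592), and its second probe set was at −0.12 and not called (limma adjusted p = 0.0672). Tef had 3 probe sets, of which 2 fell and the dimmest, at −0.17, was not called (limma adjusted p = 0.32).

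Among 10 kinases and factors of clock protein turnover 3 fell and 3 rose. Usp2, a deubiquitinase gene known as a clock output, fell by 0.79, the casein kinase gene Csnk1e fell by 0.55, and the F-box gene Fbxw11 fell by 0.24, a call lost with the mean of its probe sets (−0.14). Prkaa2, a catalytic AMPK subunit gene, rose by 0.21, and Csnk1d and Csnk2a1 rose by 0.20 and 0.13. With the mean of its probe sets Csnk1d had a change of −0.12, called as lower. The calls of Csnk1d and Csnk2a1 were lost with a floor of 64, without a filter and without a variance trend, and that of Csnk2a1 also without rosiglitazone array 2 (0.12) or 3 (0.095). Gsk3b had a log2 change of −0.0029 (limma adjusted p = 0.957), which was 0.12 and called after median centring.

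Of 12 cofactors 6 fell and 6 were not called. Ep300 and Crebbp, acetyltransferases that work with the activating pair, fell by 0.41 and 0.28, and Nono, a partner of PER proteins, fell by 0.37. Ezh2 fell by 0.25, Kat2b fell by 0.18 and Ddx5 fell by 0.12; after median centring these 3 were at −0.12, −0.054 and 0.0044 and not called. With the mean of probe sets Kat2b was at −0.0093 and Ddx5 at −0.068, again not called. Hdac3, the deacetylase that Rev-erb proteins recruit, had a log2 change of 0.0044 (limma adjusted p = 0.931), which was 0.13 and called after median centring.

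Clock-controlled metabolic and cell cycle genes did not move as one, with 5 of 10 lower and 3 higher. Of all genes tested 35.7% were lower and 23.5% higher. Tsc22d3 fell by 0.80, Klf10 fell by 0.51, the mitotic kinase gene Wee1 fell by 0.34, and Nampt, of NAD synthesis, fell by 0.33. Of these, Tsc22d3 is also among the glucocorticoid-responsive genes. Gys2, a glycogen synthase gene that CLOCK activates in mouse liver, rose to 1367.5 ± 13.6 with rosiglitazone, against 206.6 ± 19.7 in control cells (SD, n = 3 each). Herpud1 rose by 0.52. Lpin1 rose by only 0.079. That call was lost after quantile normalization (0.036), with a floor of 64, without a filter and without a variance trend. It was also lost without control array 2 (0.066) or 3 (0.068) or rosiglitazone array 3 (0.066).

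**Figure D3:**
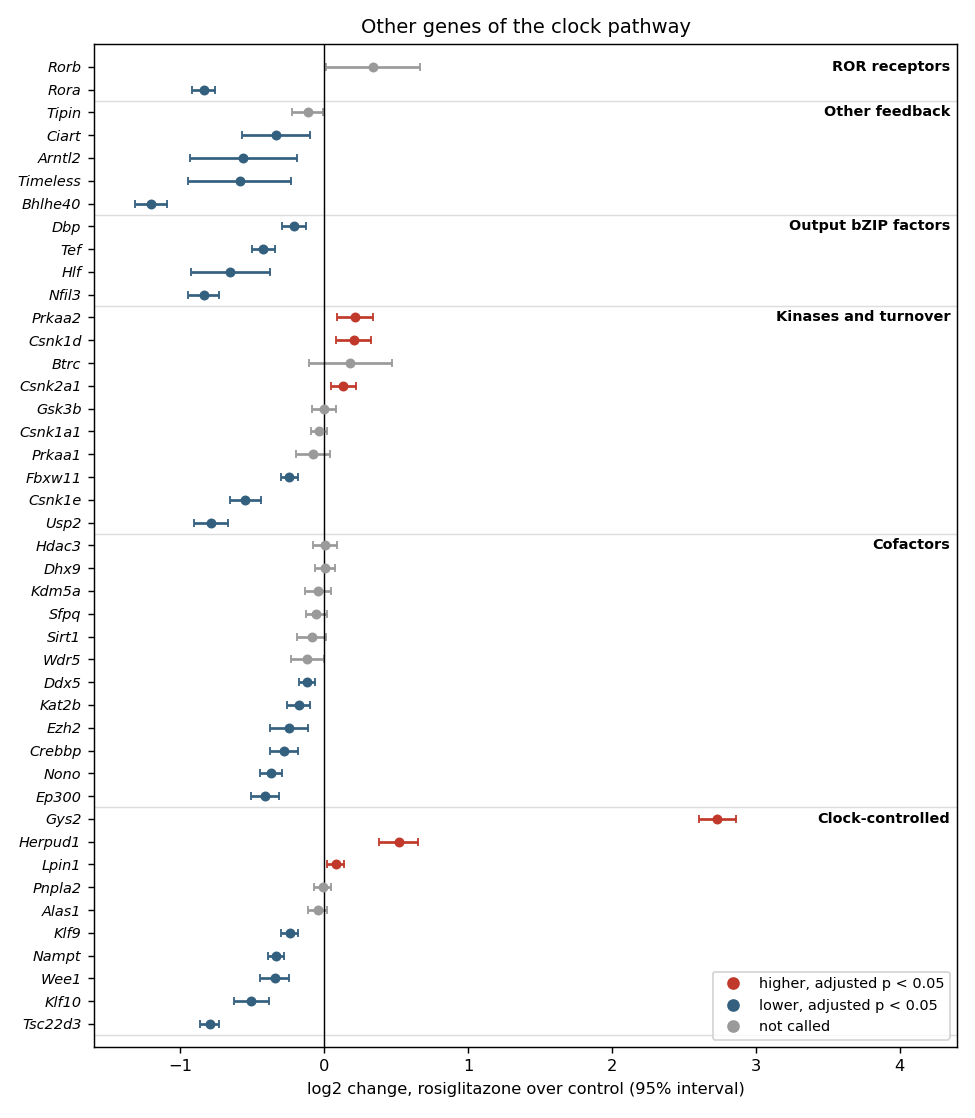
Log2 change, rosiglitazone over control, with its 95% interval (x axis) for the 43 tested genes around the core loop (y axis), in 6 lists and ordered by change within a list; colour gives the call over all genes tested. The output bZIP factors and the other feedback factors lie below 0, from −0.12 for Tipin to −1.21 for Bhlhe40, while Gys2 stands far to the right at 2.73.

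The calls of Arntl, Per1, Per3 and Cry2 held under all 16 alternatives, and Npas2 was called under none of the 16. Arntl ranged from −0.55 to −0.19, Per1 from −0.45 to −0.29, Per3 from −0.83 to −0.48 and Cry2 from −0.64 to −0.49 over those alternatives. Nr1d1 ranged from −0.85 to −0.67 apart from the floor of 64, where it could not be measured.

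**Figure D4:**
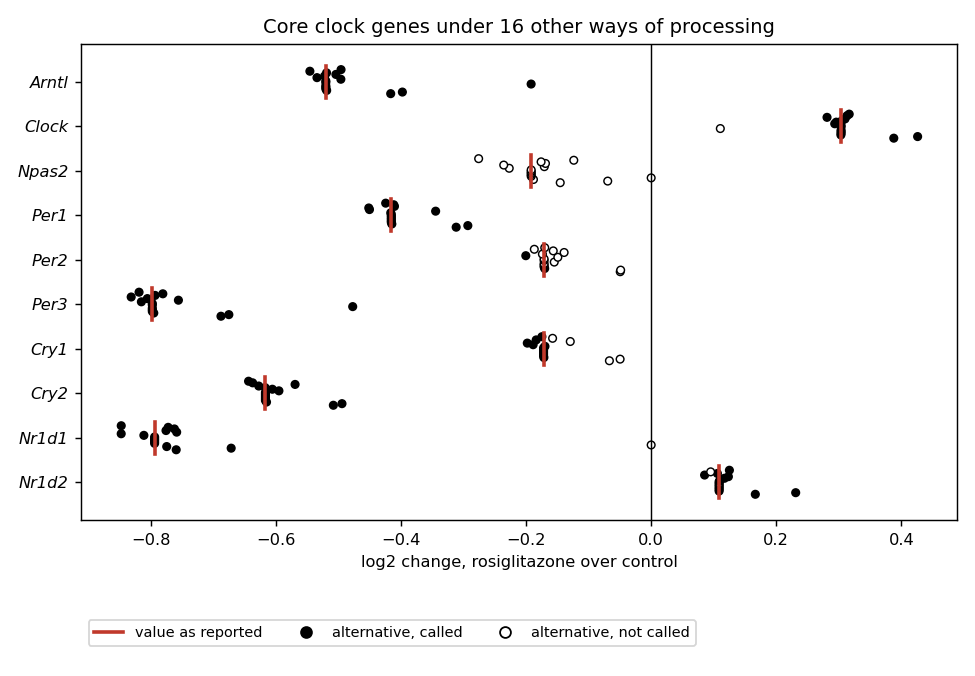
Log2 change, rosiglitazone over control (x axis), of each core clock gene (y axis) under 16 alternatives in processing (points, filled where the gene was called) beside the value as reported (red line). Per2 has open points for 11 alternatives and Cry1 for 4, while the points of Per3, Cry2, Arntl and Per1 are all filled.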

How the data were processed

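Biotin-labelled cRNA from total RNA of the 6 fat cell samples was read on Affymetrix mouse arrays, per the labels. The values used were probe set intensities on a linear scale, deposited by the authors for 45101 probe sets, without pooling of replicates. The sources used here do not give how they were background-corrected, summarized and scaled. Samples were grouped by title and treatment, since the labels' treatment protocol names the drug for all 6. Of 45037 probe sets other than 64 controls, 34945 had 1 gene symbol, 932 several and 9160 were not listed in the annotation.

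Intensities under 16 were set to 16 and log2 was taken. A filter dropped the dimmest 40% by mean log2, those under 26.7. Each gene was read by its brightest probe set with 1 symbol. The test was two-sided, from limma 3.58.1 under R 4.3.3 (lmFit, eBayes with trend), without covariates, and p-values were adjusted by Benjamini-Hochberg across 12947 genes. A second fit covered all 27022 probe sets. The number of arrays limits the precision. The code was tested on simulated data. Named were all members, the called genes of the other clock lists (up to 6 each, with 1 not called) and up to 4 of each marker list. Beside these stand Lpin1, markers too dim to test, markers that make up a small count and genes whose sign turned. Those additions were named after their values were seen. The members and lists were chosen with earlier results of these data known. The alternatives were 2 other scalings, log2(value + 1), a floor of 64, other filters, the mean of probe sets, no trend, array weights, the replicate block and each array left out. Replicate numbers showed no clear pairing of the arrays. Same-numbered arrays deviated from their group means with correlations of −0.02, −0.02 and 0.06, and unlike-numbered arrays with −0.07 to 0.09. With 3 arrays per group these values cannot tell a weak pairing from none.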

Additional observations from a re-analysis of the deposited data

How the results depend on the processing

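Of the 10 core genes 9 were called as reported, and 6 to 9 over the 16 alternatives. Leaving out 1 array gave 6 to 9 core genes, 9 to 11 core probe sets (11 as reported, 9 to 13 over 15 alternatives) and 27 to 30 other pathway genes (29 as reported, 25 to 31 over 16). With the replicate number as a block, a pairing of which the arrays gave no clear sign, 8 core genes, 11 probe sets and 29 other genes were called. There Per2 had a log2 change of −0.17 and was not called (limma adjusted p = 0.0627), and no other core gene lost its call.

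Calls of core genes that were lost were as follows, and the cause was not tested. After quantile normalization Per2 was at −0.049 and Cry1 at −0.067, and after median centring Per2 was at −0.049 and Cry1 at −0.050. Over all genes the median log2 change was 0.071 after that centring, beside −0.051 as deposited, so changes are relative to the deposited scale. Per2 was also lost with the lowest 20% left out (−0.17), with array weights (−0.15) and with its probe sets averaged (−0.15). Clock was lost with its probe sets averaged (0.11), and Nr1d2 without a variance trend (0.11). With a floor of 64 Nr1d1 was at 0, because all its values lie under that floor. Leaving out 1 array, Per2 ranged from −0.20 to −0.14, Cry1 from −0.20 to −0.13 and Nr1d2 from 0.085 to 0.13.

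For single genes outside the core, 1236 values stayed on the same side of the threshold, of which 25, not called either way, turned sign. Another 45 lost and 22 gained a call with the same sign, and 9 turned sign where at least 1 of both values was called. After median centring Csnk1a1 was at 0.085, Gsk3b at 0.12, Ddx5 at 0.0044, Pnpla2 at 0.11 and Fabp4 at 0.081. With the mean of probe sets Arntl2 was at 0.077, Csnk1d at −0.12, Pnpla2 at 0.26 and Fabp4 at 0.075. Nr1d1, Npas2, Timeless and Arntl2 rest on signals little above the filter, which limits them.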
